A study of Mus musculus with 12 samples.

Results

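The genes described here are 32 erythroid names, given as a list of transcription regulators, membrane and surface proteins, and iron and mitochondrial carriers of the red cell lineage, with globins and haem enzymes left out. Of these, 31 were found by gene symbol in both tables of expression values, which hold 18335 symbols in common and 19510 between them. The remaining name, Sptb (the beta chain of spectrin), is not matched under that symbol. The series measured the transcriptome of femurs taken from male mice of mixed background at 5 weeks of age. Dlx3Oc-cKO mice (cKO from here on), which carry a conditional deletion of the homeobox gene Dlx3, were set against wild-type mice with the genotype Dlx3+/+ (WT). The metaphysis (the flared end of the bone) and the diaphysis (its shaft) were sequenced apart, which gave 4 groups of 3 libraries and 12 libraries in all. The labels do not spell out what drives the deletion. In the published line of this name it is Cre under the osteocalcin promoter, which is active in bone-forming cells, and the labels do not say whether WT mice carried Cre or whether marrow was flushed from the bones. Whether each library is a separate animal is not stated either, so p-values reflect spread among libraries that may be technical.

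Red cells are made in the marrow spaces of the femur. Erythropoietin acts on progenitors through its receptor Epor, and a set of transcription factors led by GATA1, TAL1 and KLF1 then switches on the genes of the red cell. GATA1 binds DNA at a GATA core, and KLF1 at a CACCC box. The maturing cells take up iron through the transferrin receptor and pass it into mitochondria for haem, build a spectrin skeleton tied to the anion exchanger Slc4a1, condense and expel the nucleus, and leave as reticulocytes.

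Since GATA1 and KLF1 act on genes of this kind, the DNA at the members' starts was read for letters of their sites. RefSeq promoter windows (GRCm38.p6; 250 bases before to 50 bases after a start) were held for 24 of the 32 names. The motif AGATAA, on either strand, occurred in a window of 9 of the 24 (37.5%), against 12.7% of all genes with a window. Those 9 were 3 of the 10 names with a window that passed in the metaphysis test given further on, and 6 of the 14 others. The 14 include Sptb, which was not tested under that symbol and has no AGATAA in its window. A gene was counted if any of its windows held the motif, and Sox6 has several windows. Counted by window, AGATAA was in 9 of the 31 windows of these names, against 11.2% of all windows. Its shorter core GATAA, which overlaps every AGATAA and was searched after that count was seen, occurred in 14 of the 24 (58.3%), against 28.4% of all genes. CACCC was in 21 of the 24 (87.5%), against 59.8%, and TGACTCA or TGAGTCA, the site of NFE2 and AP-1 factors, was in 3 of the 24 (12.5%), against 5.95%. A match is a string of letters and not a bound site. The 6 sequences below, each 140 bases from 120 before to 20 after the start and written 5′ to 3′ on the gene's strand, were picked after the search to show how these letters sit near the start, and of their genes Gata1 alone passed in the metaphysis. They belong to the regulators Gata1 and Klf1, the receptor Epor and the surface proteins Rhd, Kel and Icam4, and capitals mark GATAA and CACCC or their reverse complements TTATC and GGGTG.
Gata1 (chrX:7967891-7968030, minus strand): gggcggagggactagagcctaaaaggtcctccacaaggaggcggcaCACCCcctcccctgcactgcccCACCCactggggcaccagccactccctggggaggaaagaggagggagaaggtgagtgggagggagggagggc
Klf1 (chr8:84901862-84902001, plus strand): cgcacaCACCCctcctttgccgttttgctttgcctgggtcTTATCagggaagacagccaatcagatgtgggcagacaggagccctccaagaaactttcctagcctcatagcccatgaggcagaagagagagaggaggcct
Epor (chr9:21963557-21963696, minus strand): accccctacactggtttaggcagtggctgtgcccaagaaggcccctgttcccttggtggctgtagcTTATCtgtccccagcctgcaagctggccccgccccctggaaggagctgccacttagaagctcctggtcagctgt
Rhd (chr4:134864416-134864555, plus strand): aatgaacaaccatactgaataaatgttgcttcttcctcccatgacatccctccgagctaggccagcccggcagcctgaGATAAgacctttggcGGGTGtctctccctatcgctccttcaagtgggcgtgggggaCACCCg
Kel (chr6:41704306-41704445, minus strand): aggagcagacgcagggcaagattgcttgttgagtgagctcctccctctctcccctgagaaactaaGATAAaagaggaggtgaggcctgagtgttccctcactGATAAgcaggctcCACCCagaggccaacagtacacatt
Icam4 (chr9:21029312-21029451, plus strand): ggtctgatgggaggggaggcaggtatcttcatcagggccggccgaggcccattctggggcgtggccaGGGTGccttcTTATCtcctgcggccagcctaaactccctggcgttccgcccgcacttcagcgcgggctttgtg
In Rhd, Icam4 and Epor the AGATAA string or its reverse complement begins 43, 43 and 54 bases before the start. Kel has AGATAA 56 bases before the start and a further GATAA 18 bases before it. Klf1 carries TTATC 80 bases before its start and CACCC 114 bases before it, and Gata1 carries CACCC 74 and 52 bases before its start with no GATAA in the printed stretch.

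The values are RPKM, reads per kilobase of transcript per M reads (M, mega), summed over the transcripts of a gene. The spacing of the lowest values gave 18.4 to 53.4 M reads per library in the diaphysis and 24.6 to 34.4 M in the metaphysis, at which 10 reads on a transcript of 2 kb make 0.0936 to 0.273 RPKM. All 31 members lay well above that in every library and passed the filter of 1 RPKM in 3 of 6 libraries in both regions. Dlx3 itself measured 1.98, 2.80 and 3.24 RPKM in metaphysis cKO libraries, against 8.37, 8.90 and 10.1 RPKM in metaphysis WT libraries. In the diaphysis it measured 0.763, 1.55 and 1.17 RPKM in cKO, against 3.22, 7.64 and 13.1 RPKM in WT, so the genotype labels and the targeted gene went together in both regions. Red cell RNA was present in all 12 libraries, and 13.5% to 32.6% of each library's summed RPKM was globin. Diaphysis WT replicate 1 stood apart: its 31 members summed to 3949 RPKM, against 2074 and 1879 RPKM in the other WT libraries, while its osteoblast markers summed to 5001 RPKM, against 20141 and 28782 RPKM. Metaphysis cKO replicate 2 was the lowest of its 6 libraries for 29 of the 31 members. The members' sums, medians and counts of calls are given with and without these libraries.

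In the metaphysis all 31 measured members were lower in cKO than in WT, where 54.9% of all genes tested were. The members summed to 1482, 814 and 1321 RPKM in cKO libraries (mean 1206 ± 349, SD), against 1924, 2419 and 2116 RPKM in WT libraries (2153 ± 250), so that cKO reached 56.0% of WT and no cKO library reached the lowest WT library. Single members reached 46.2% (Trim10) to 76.6% (Car1) of WT, with a median of 56.3%. The median difference on the log2(RPKM + 0.1) scale was -0.88, against -0.036 over all genes tested. Of the 31 members, 15 fell (limma, adjusted p under 0.05), 0 rose and 16 did not pass, where 3.89% of all 12641 genes tested fell and 7.51% rose. The cKO and WT libraries did not overlap for 28 of the 31 members, where 18.4% of all genes had every cKO value below every WT value, and 28 had an unadjusted p under 0.05, where 15% of all genes were lower at that level. The 3 that overlapped were the repressor gene Gfi1b, the carbonic anhydrase gene Car1 and Tspo2, named here after their values were seen. For Gfi1b this holds for the sum over transcripts. Its more abundant transcript, NM_008114, measured 6.37, 3.61 and 8.29 RPKM in cKO and 9.41, 8.47 and 9.48 RPKM in WT, without overlap. Its transcript NM_001160406 overlapped, as did both listed transcripts of Car1. In bulk tissue, fewer red cell precursors and less RNA per precursor cannot be told apart. The count of calls rested on single libraries. It was 0 without WT replicate 1, 0 without WT replicate 2, 1 (Sox6) without WT replicate 3, 0 without cKO replicate 3, 19 without cKO replicate 1 and 21 without cKO replicate 2, with 26 to 30 members at an unadjusted p under 0.05 each time. It was also 0 when all 12 libraries shared 1 estimate of the spread (28 at an unadjusted p under 0.05). Only 7 of all 12321 genes passed in that fit, so calls were few for genes of any kind. The shares of all genes called without single libraries are not given here. The direction was lower for all 31 members in each of these fits. Sizes also leaned on cKO replicate 2. Without it the cKO sum was 65.1% of WT, the median difference was -0.58 (range -0.89 to -0.17), and the difference of 13 members was smaller by over 1.5 times.

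**Figure D1:**
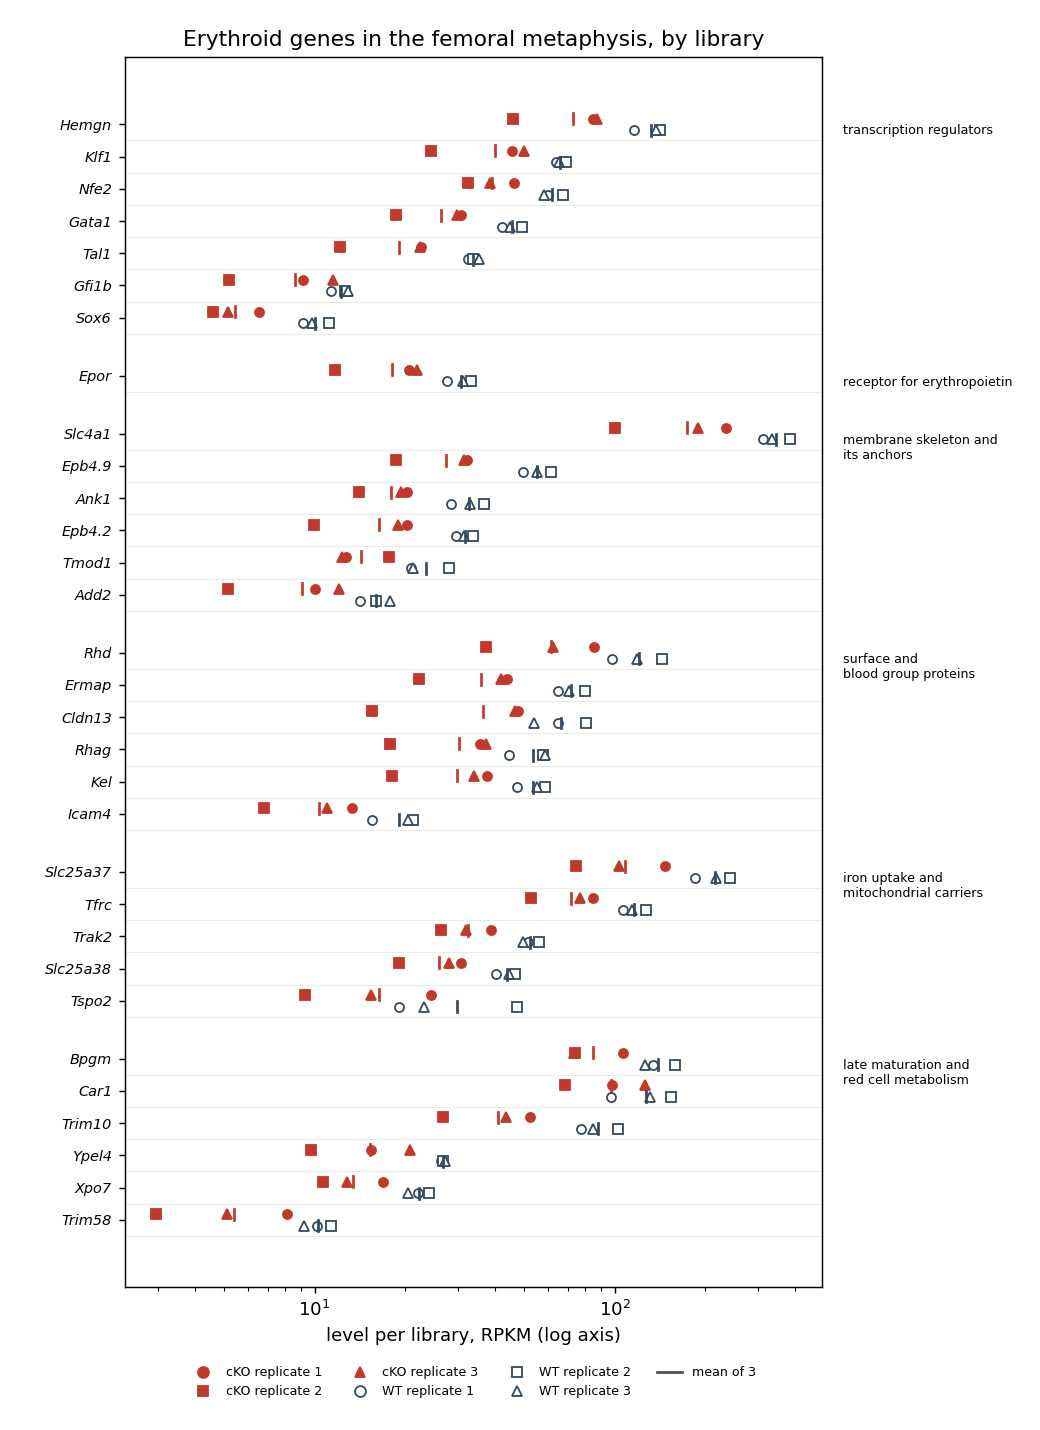
Level of each of the 31 members in the 6 metaphysis libraries, in RPKM on a log axis, grouped by role, with a tick at the mean of 3 libraries. Filled red symbols (cKO) lie left of open blue symbols (WT) for 28 members, and the red square, cKO replicate 2, is the lowest library for 29.

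The transcription regulators ranged in mean level over cKO libraries from 5.42 to 72.6 RPKM and over WT libraries from 10.1 to 132 RPKM. Of the 7, Gata1, Nfe2 and Sox6 fell and 4 did not pass. Gata1 (chromosome X, 7536386 to 7555197, minus strand, mm9), the factor without which red cell precursors do not mature, had 30.8, 18.7 and 29.8 RPKM in cKO libraries, against 42.3, 49.3 and 44.8 RPKM in WT libraries. The groups did not overlap and the difference was -0.81 ± 0.19 (log2, SE; adjusted p = 0.0391). Nfe2, a subunit of the factor that acts at globin genes and in platelet formation, measured 46.2, 32.5 and 38.5 RPKM in cKO and 60.0, 67.3 and 58.0 RPKM in WT (-0.67 ± 0.14, adjusted p = 0.0274). Sox6 represses embryonic globin in maturing mouse red cells and also serves in cartilage. Its values were 6.51, 4.60 and 5.16 RPKM in cKO and 9.17, 11.2 and 9.83 RPKM in WT, which gave -0.89 ± 0.15 and the smallest adjusted p of the members (0.0171). Markers of cartilage cells went the other way in the same libraries, as given further on. The most abundant regulator, Hemgn (chromosome 4, 46406861 to 46426378, minus strand), a nuclear protein of blood-forming cells, had 84.6, 45.7 and 87.4 RPKM in cKO, against 116, 142 and 138 RPKM in WT. Its groups were clearly apart, yet the difference of -0.92 ± 0.25 did not pass (adjusted p = 0.0547). Klf1, Tal1 and Gfi1b had differences of -0.79, -0.88 and -0.58 and did not pass. Without cKO replicate 2 these were -0.47, -0.58 and -0.25, and Klf1, Tal1 and Hemgn (-0.61) then passed while Gfi1b did not.

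The receptor gene Epor (chromosome 9, 21763343 to 21768020, minus strand) is the entry point of erythropoietin signalling. It measured 20.6, 11.7 and 22.0 RPKM in metaphysis cKO libraries, against 27.7, 33.1 and 31.3 RPKM in WT libraries. The groups did not overlap, and the difference of -0.81 ± 0.23 did not pass (adjusted p = 0.0647). Without cKO replicate 2 the difference was smaller, -0.52 ± 0.11, and passed.

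Of the 6 measured genes of the membrane skeleton and its anchors, 4 fell and 2 did not pass, and all 6 had groups that did not overlap. Ank1 encodes the ankyrin that ties the spectrin skeleton to the anion exchanger. It had 20.3, 14.1 and 19.4 RPKM in cKO, against 28.5, 36.6 and 33.1 RPKM in WT (-0.88 ± 0.16, adjusted p = 0.0211). It is listed as 2 transcripts. The first, NM_001110783, measured 11.9, 8.41 and 13.4 RPKM in cKO and 19.8, 27.0 and 24.6 RPKM in WT, without overlap. The second, NM_031158, measured 8.49, 5.67 and 5.95 RPKM in cKO and 8.68, 9.65 and 8.49 RPKM in WT. The gap was thus wider in the first, although how reads shared by the transcripts were split is not given in the sources used here. Epb4.9, which encodes the actin-bundling protein dematin, fell to 32.3, 18.6 and 31.5 RPKM in cKO, against 49.4, 61.3 and 55.0 RPKM in WT (-1.04 ± 0.21, adjusted p = 0.0274). Epb4.2, whose product binds the anion exchanger and ankyrin, stood at 20.3, 9.97 and 19.0 RPKM in cKO and 29.5, 33.8 and 31.6 RPKM in WT (-1.01 ± 0.26, adjusted p = 0.0475).

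Tmod1, which caps the pointed ends of actin filaments in red cells and in striated muscle, also fell (-0.72 ± 0.18, adjusted p = 0.0420). Its order of libraries was its own. It measured 12.7, 17.7 and 12.3 RPKM in cKO, against 21.0, 28.1 and 21.3 RPKM in WT, so that cKO replicate 2 was its highest cKO library. The 12 skeletal muscle markers summed to 3847, 12275 and 3103 RPKM in the same cKO libraries, against 7157, 10597 and 7256 RPKM in WT libraries, with cKO replicate 2 again the highest. Of these markers 1 of 12 fell and 0 rose, where 3.89% of all genes tested fell and 7.51% rose. None was at 0 in all libraries, and their part in the Tmod1 values was not tested. Slc4a1 (chromosome 11, 102210138 to 102227517, minus strand), the anion exchanger and the most abundant member in WT, had 235, 101 and 190 RPKM in cKO, against 313, 384 and 335 RPKM in WT. Its difference of -1.06 ± 0.29 came with a wide spread in cKO and did not pass (adjusted p = 0.0575). It passed without cKO replicate 2 (-0.70) and without cKO replicate 1 (-1.31), and Tmod1 no longer passed without cKO replicate 1 (-0.65). Add2, the beta chain of adducin, did not pass either (-0.89 ± 0.29, adjusted p = 0.0895, and -0.53 without cKO replicate 2). Spnb1 is an older symbol that RefSeq lists for Sptb, and the tables hold it. Under that name the gene measured 21.6, 10.9 and 15.8 RPKM in cKO and 28.5, 35.3 and 28.7 RPKM in WT (-0.98 ± 0.24, adjusted p = 0.0412), and it is not counted among the members.

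Among surface and blood group proteins, 1 of 6 fell and 5 did not pass, with all 6 differences between -1.05 and -0.89 and no overlap of groups. Ermap, an immunoglobulin-like protein that carries the Scianna blood group in humans, had 43.7, 22.4 and 41.8 RPKM in cKO, against 64.6, 79.7 and 70.3 RPKM in WT. The cKO mean was 50.3% of WT (-1.05 ± 0.25, adjusted p = 0.0401). Rhd (chromosome 4, 134420451 to 134452087, plus strand), the Rh protein of the mouse and the most abundant of the group, measured 85.3, 37.3 and 62.2 RPKM in cKO and 98.0, 144 and 119 RPKM in WT. Its -1.03 ± 0.29 did not pass (adjusted p = 0.0634). Rhag (the partner of Rh proteins in the membrane), Kel (a surface endopeptidase that carries the Kell blood group in humans), Icam4 (an adhesion protein) and Cldn13 (a claudin) had adjusted p between 0.0560 and 0.155. Cldn13, given in full after its values were seen, varied most among these, with 47.5, 15.6 and 46.5 RPKM in cKO, against 64.9, 80.1 and 53.9 RPKM in WT. Without cKO replicate 2 its difference was -0.48 in place of -1.01, that of Rhag was -0.55 in place of -0.89, and Kel passed (-0.58). Rhd (-1.30), Kel (-1.10) and Icam4 (-1.12) passed without cKO replicate 1.

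Of the 5 iron and mitochondrial genes 4 fell and 1 did not pass. Their median difference was -0.78, against -0.88 over all 31 members and -0.96 for the surface proteins. More passes thus did not go with larger differences. Tfrc, the transferrin receptor, is made by red cell precursors in large amounts and by dividing cells of many kinds. It measured 84.5, 52.8 and 77.0 RPKM in cKO, against 107, 128 and 115 RPKM in WT (-0.73 ± 0.18, adjusted p = 0.0432). Slc25a37 (chromosome 14, 69859908 to 69903160, minus strand), mitoferrin, carries iron across the inner mitochondrial membrane. It fell to 147, 74.3 and 103 RPKM in cKO, against 185, 243 and 218 RPKM in WT, the largest difference of these 5 genes (-1.04 ± 0.24, adjusted p = 0.0358). Slc25a38, which brings glycine into mitochondria for the first step of haem synthesis, had 30.8, 19.2 and 28.1 RPKM in cKO and 40.3, 46.7 and 44.5 RPKM in WT (-0.78 ± 0.18, adjusted p = 0.0352). Trak2, an adaptor that links mitochondria to kinesin motors, gave 38.7, 26.4 and 31.9 RPKM in cKO and 51.5, 55.9 and 49.4 RPKM in WT (-0.71 ± 0.14, adjusted p = 0.0266). Tspo2, a membrane protein of late red cell precursors, overlapped between the groups and did not pass. It had 24.4, 9.33 and 15.5 RPKM in cKO, against 19.1, 47.5 and 23.2 RPKM in WT (-0.85 ± 0.42, and -0.50 without cKO replicate 2).

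Of the 6 genes of late maturation and red cell metabolism, Trim10, Bpgm and Xpo7 fell and 3 did not pass. Trim10, a tripartite-motif protein needed for the last steps of mouse red cell maturation in culture, showed the lowest share of WT of all members. It had 52.3, 26.8 and 43.5 RPKM in cKO, against 77.6, 103 and 85.0 RPKM in WT (-1.16 ± 0.24, adjusted p = 0.0283). Xpo7, a nuclear export receptor used as mouse red cell nuclei condense, had 16.9, 10.6 and 12.9 RPKM in cKO, against 22.2, 24.1 and 20.5 RPKM in WT (-0.74 ± 0.17, adjusted p = 0.0355). It lies beside Epb4.9 on the minus strand of chromosome 14 (71054053 to 71166435, against 71001070 to 71035785). Bpgm (chromosome 6, 34426207 to 34455613, plus strand) makes the bisphosphoglycerate that lowers the oxygen affinity of haemoglobin. It measured 107, 73.8 and 73.1 RPKM in cKO, against 135, 159 and 126 RPKM in WT, and it fell with the groups apart (-0.74 ± 0.17, adjusted p = 0.0355). Car1, the red cell carbonic anhydrase, had the smallest difference of all members. Its values were 98.0, 68.3 and 127 RPKM in cKO and 97.1, 154 and 131 RPKM in WT, which overlapped (-0.40 ± 0.25, adjusted p = 0.319). Ypel4 and Trim58, a ubiquitin ligase that acts in mouse enucleation, did not pass (adjusted p = 0.0615 and 0.0808). Without cKO replicate 2, Ypel4 passed (-0.58), Bpgm no longer did (-0.65), and the differences of Trim58 and Car1 were -0.66 and -0.17. Trim58 passed without cKO replicate 1 (-1.37).

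Members moved together from library to library. In the metaphysis the SD of a member's log2 level over the 6 libraries had a median of 0.59 and ran from 0.41 to 0.82. After the median of all members was subtracted in each library, the SD had a median of 0.16 and ran from 0.063 (Hemgn) to 0.49 (Tmod1). Each member is part of that median, and the libraries differ in genotype, so this is a description. Tmod1 in cKO replicate 2 stood 0.96 above the members' median shift, and Cldn13 in the same library stood at -0.57 relative to it. The 31 members lie on 15 chromosomes, with Slc4a1 and Trim58 on chromosome 11, where Dlx3 is.

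Other genes of the lineage were followed through a list of 56 erythroid genes outside the members, of which 51 were measured and tested. In the metaphysis 13 of the 51 fell, 1 rose and 37 did not pass, where 3.89% of all genes tested fell and 7.51% rose. Their median difference was -0.55. Of these 14 genes 8 are named. Art4, which carries the Dombrock blood group in humans, had the largest fall, with 2.61, 1.39 and 2.75 RPKM in cKO and 4.33, 5.11 and 4.81 RPKM in WT (-1.10). Abcb10, a mitochondrial transporter that partners mitoferrin, had 27.5, 16.8 and 27.0 RPKM in cKO, against 44.8, 46.3 and 45.0 RPKM in WT (-0.96). E2f2, a cell cycle factor that acts in late mouse red cell precursors, fell by 0.96 on the log2 scale, and Gypc, a glycophorin that anchors the skeleton, fell by 0.76. The water channel Aqp1 (-0.68), the urea transporter Slc14a1 (-0.91) and the survival gene Bcl2l1 (-0.69) fell as well. Fam38a, an older symbol of the stretch channel Piezo1 that bone cells also use, was the gene that rose, with 19.5, 16.6 and 19.2 RPKM in cKO and 14.4, 12.4 and 14.3 RPKM in WT (0.43 ± 0.11, adjusted p = 0.0445). In the diaphysis 0 of the 51 passed, and their median was 0.0034.

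Globin and haem genes, left out of the members by their definition, gave the following in the metaphysis. Alas2, the first enzyme of haem synthesis in red cells, measured 310, 193 and 250 RPKM in cKO and 389, 455 and 379 RPKM in WT (-0.72 ± 0.18, adjusted p = 0.0432). The alpha globin gene Hba-a1 measured 15907, 15898 and 21472 RPKM in cKO, against 21361, 23172 and 20789 RPKM in WT, and its overlapping groups did not pass (-0.31 ± 0.18, adjusted p = 0.296). Hba-a2 had -0.28 ± 0.17, also with overlap. The beta globin genes differed more, with no overlap of groups and no pass, at -0.81 ± 0.22 for Hbb-b1, -0.83 ± 0.27 for Hbb-b2 and -0.64 ± 0.20 for Beta-s. Near-identical globin copies share reads, so single globin genes are uncertain. All globins together took 15.8%, 13.5% and 17.2% of the summed RPKM in cKO libraries, against 19.1%, 22.1% and 19.0% in WT libraries. With globins taken out of the library total, 16 members fell and the median difference was -0.96. The median over all genes moved down as well in that setting, from -0.036 to -0.12, and the share of all genes called in it is not given here.

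Markers of other cell types moved in the same metaphysis libraries, and their part in the members' differences was not tested. For comparison with the counts below, 3.89% of all genes tested fell and 7.51% rose. Of 15 B lymphoid markers 9 fell and 0 rose, and they summed to 312 to 374 RPKM in cKO and 478 to 594 RPKM in WT. Megakaryocytes share Gata1, Tal1, Gfi1b and Nfe2 with red cell precursors. Of 12 megakaryocyte and platelet markers 2 fell (Ppbp and Gp5), and the list summed to 569, 411 and 432 RPKM in cKO and 849, 706 and 674 RPKM in WT, without overlap. Among 20 genes of dividing cells 7 fell and 0 rose, with sums of 921, 591 and 879 RPKM in cKO, against 1204, 1280 and 1267 RPKM in WT. Of 15 neutrophil markers 0 fell and 1 (Mmp9) rose, while 14 of the 15 had a difference below 0 (median of the list, -0.24). The list summed to 8585 to 11758 RPKM in cKO and 8823 to 14554 RPKM in WT, so these groups overlapped. Of 13 measured macrophage markers 1 fell (Vcam1) and 3 rose (Csf1r, Cd68 and Maf), and 8 of the 13 had a difference below 0. C1qa, C1qb, C1qc and Dnase2a did not pass but had every cKO value below every WT value. The 13 summed to 327 to 383 RPKM in cKO and 290 to 341 RPKM in WT.

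Bone and cartilage markers were mostly higher in cKO. Over all genes tested, 7.51% rose and 3.89% fell. Of 12 osteoblast markers 7 rose and 0 fell, with sums of 23375 to 25077 RPKM in cKO and 15080 to 19423 RPKM in WT. Of 12 cartilage markers tested 8 rose and 0 fell, and all 13 measured summed to 1778 to 2698 RPKM in cKO and 1015 to 1273 RPKM in WT. No marker of these lists was at 0 in every library. The titles of metaphysis libraries hold the letters GP, which the labels leave unexplained. RPKM is a share of each library's reads, so a larger share of bone or cartilage RNA and lower erythroid values in the same library are not independent measurements.

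**Figure D2:**
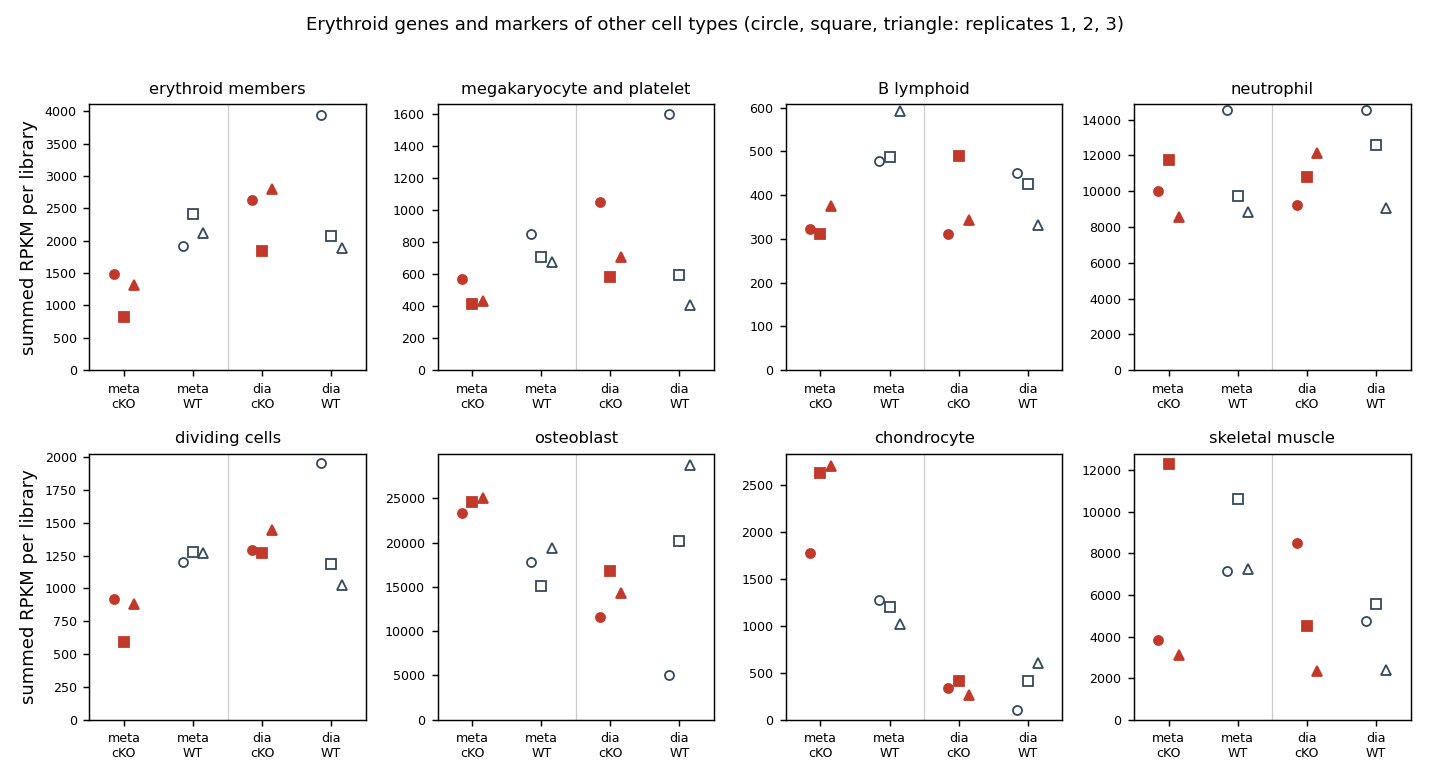
Summed RPKM per library of the 31 erythroid members and of 7 marker lists, with metaphysis cKO, metaphysis WT, diaphysis cKO and diaphysis WT from left to right in each panel (filled red, cKO; open blue, WT; circle, square and triangle, replicates 1, 2 and 3). In the metaphysis the erythroid, megakaryocyte, B lymphoid and dividing-cell sums are lower in all 3 cKO libraries and the osteoblast and chondrocyte sums higher, and diaphysis WT replicate 1 is highest for erythroid members (3949 RPKM) and lowest for osteoblast markers (5001 RPKM).

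In the diaphysis the same genes gave no called difference. The members summed to 2636, 1841 and 2804 RPKM in cKO libraries (2427 ± 514, SD) and to 3949, 2074 and 1879 RPKM in WT libraries (2634 ± 1143), so the groups overlapped and the cKO mean was 92.1% of WT. Without WT replicate 1 the WT mean was 1977 RPKM and the cKO mean was 122.8% of it. By limma 0 of the 31 members passed, 0 had an unadjusted p under 0.05 and all 31 had overlapping groups, where 3.03% of all genes did not overlap. Across all 12540 genes 0 passed and 86 had an unadjusted p under 0.05 (0.686%). The deleted gene Dlx3 did not pass either, at -2.52 ± 0.50 (log2, SE) with groups that did not overlap. Of the members, 18 were lower and 13 higher, with a median of -0.031, where 49.3% of all genes were lower. The SEs of these differences were 0.23 to 0.81 on the log2 scale, against 0.14 to 0.42 in the metaphysis, and a p that misses the threshold does not show that levels were alike.

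In the diaphysis WT replicate 1 was the highest library for 29 of the 31 members, while cKO replicate 2 was the lowest for 15 and WT replicate 3 for another 15. Slc4a1 measured 501, 349 and 502 RPKM in cKO, against 775, 388 and 365 RPKM in WT, with WT replicate 1 above all other libraries and cKO replicate 2 below them (-0.11 ± 0.33). Slc25a37 had 247, 162 and 289 RPKM in cKO and 388, 186 and 178 RPKM in WT (-0.05 ± 0.35). Hemgn had 144, 125 and 195 RPKM in cKO and 252, 124 and 123 RPKM in WT (-0.04 ± 0.32). In Slc25a37 the other WT libraries lay within the cKO range, and in Hemgn they lay just below it. Rhd measured 154, 79.9 and 142 RPKM in cKO, against 200, 103 and 83.3 RPKM in WT (0.01 ± 0.38). Bpgm measured 172, 136 and 142 RPKM in cKO, against 317, 143 and 137 RPKM in WT (-0.30 ± 0.33). Epor was less extreme in WT replicate 1, with 39.2, 25.6 and 36.5 RPKM in cKO and 42.1, 27.0 and 20.2 RPKM in WT (0.23 ± 0.29). Tspo2 was the most variable member, with 22.8, 4.9 and 38.3 RPKM in cKO and 55.0, 15.4 and 13.4 RPKM in WT.

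**Figure D3:**
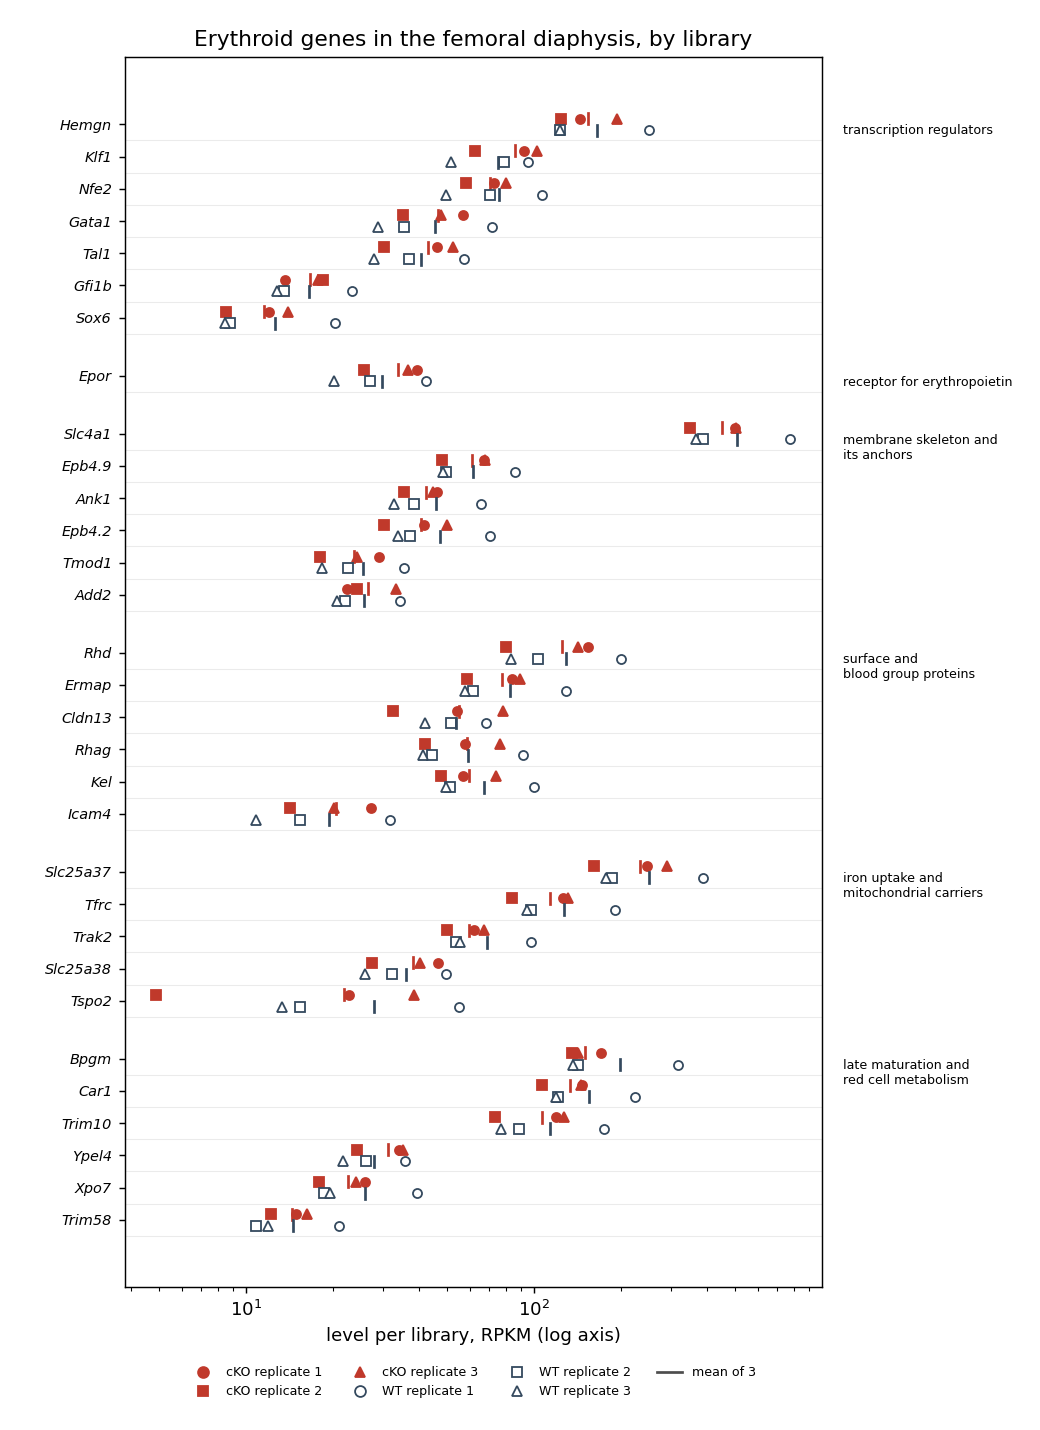
Level of each of the 31 members in the 6 diaphysis libraries, in RPKM on a log axis, with symbols as in the metaphysis plot and a tick at the mean of 3 libraries. The groups overlap for all 31 members, and the open circle, WT replicate 1, is the highest library for 29.

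Without WT replicate 1 all 31 diaphysis differences were above 0, with a median of 0.30 and a range of 0.094 to 0.61, where 47% of all genes were above 0. The direction in this region therefore depended on that library. Still 0 members and 0 of all genes passed by limma (1 member and 570 genes at an unadjusted p under 0.05). All 3 cKO values lay above both other WT values for 4 members (Hemgn, Gfi1b, Add2 and Trim58, named after their values were seen), where 8.67% of all genes did. The megakaryocyte and platelet markers summed to 1049, 582 and 704 RPKM in cKO libraries and to 1600, 594 and 405 RPKM in WT libraries, with WT replicate 1 again the highest. Whether these sums bear on the members' values in that library was not tested. Leaving out WT replicate 3 gave a median of -0.25, and leaving out cKO replicate 2 gave 0.17.

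Whether the genotype difference itself differed between the regions was tested in a fit of all 12 libraries. All 31 members had a more negative difference in the metaphysis than in the diaphysis, where 54.3% of all genes did, with a median of -0.93 and a range of -1.12 (Trim10) to -0.23 (Car1). None passed (limma, 0 of 31 and 0 of 12321 genes, smallest adjusted p = 0.908), and 11 of the 31 had an unadjusted p under 0.05, against 4.02% of all genes. Epb4.9 had the smallest unadjusted p (-1.07 ± 0.37), with Ypel4 next (-1.04 ± 0.36). Without diaphysis WT replicate 1 the test called 2 members, Ank1 (-1.12) and Sox6 (-1.27), where 2.01% of all genes were called, and the median was -1.19. That a member fell in the metaphysis and did not pass in the diaphysis is thus not by itself a difference between the regions.

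**Figure D4:**
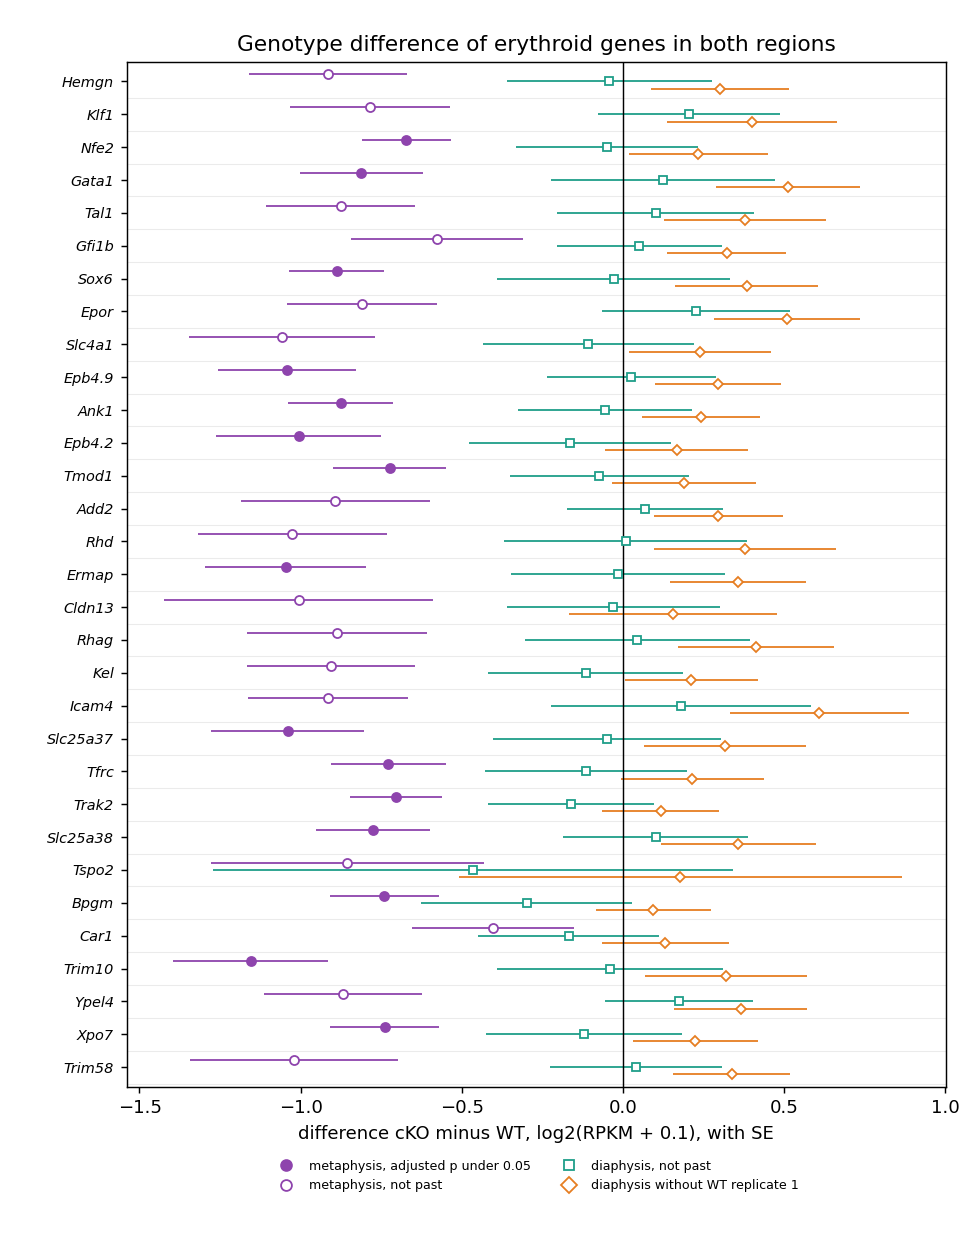
Difference between cKO and WT of each of the 31 members on the log2(RPKM + 0.1) scale with its SE, in the metaphysis (purple circles, filled where the adjusted p is under 0.05), in the diaphysis (green squares) and in the diaphysis without WT replicate 1 (orange diamonds). All metaphysis values lie between -1.16 and -0.40, diaphysis values lie on both sides of 0, and all 31 lie above 0 without WT replicate 1.

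The members differed widely in level, and RPKM corrects for length, so their levels can be set roughly against each other. Values are summed over transcripts, and how shared reads were handled is not given. The places of Car1, Ank1, Gfi1b and Sox6, each listed with several transcripts, are therefore less certain. In metaphysis WT libraries Slc4a1 averaged 344 ± 36.3 RPKM and Slc25a37 215 ± 29.4 RPKM (SD, n = 3), and their ranges did not meet. Bpgm (140 ± 17.0), Hemgn (132 ± 14.1), Car1 (127 ± 28.8), Rhd (120 ± 23.0) and Tfrc (116 ± 10.5) followed with ranges that overlapped, so their order is not fixed by these libraries. Trim10 (88.4 ± 12.9) and Ermap (71.5 ± 7.66) came next. Gfi1b (12.3 ± 0.863), Trim58 (10.2 ± 1.08) and Sox6 (10.1 ± 1.02) stood at the low end. In diaphysis WT libraries, from a table made separately, the same 9 genes held the first 9 places by mean, in the same order. Slc4a1 stood at 509 ± 230 and Ermap at 82.6 ± 40.2 RPKM, and the same 3 held the last places by mean. These means lean on WT replicate 1, and the order did not hold in each library. In WT replicate 2, Klf1 (78.7 RPKM) and Nfe2 (70.6 RPKM) stood above Ermap (61.2 RPKM). In WT replicate 3, Tfrc (94.4 RPKM) stood above Rhd (83.3 RPKM), and Icam4 (10.9 RPKM) stood below Gfi1b (12.9 RPKM) and Trim58 (11.9 RPKM). The levels of the regions were not tested against each other, since their tables were normalized apart.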

How the data were processed

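Per the labels' protocols, Trizol was used for extraction and the TruSeq RNA kit for sequencing libraries. The kit does not mark strand, so antisense partners cannot be told apart. The authors deposited 1 table per region with an RPKM value per RefSeq transcript and library, per the file headers. The submitters' processing notes list Partek 6.6, Bowtie 0.12.7.0, TopHat 1.3.2 and CASAVA 1.8.2, with the build mm9 and without their roles, and the handling of shared reads is not given in the sources used here. RPKM corrects for length and depth and not for composition.

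Transcripts were summed per symbol and values were taken as log2(RPKM + 0.1), which understates the change of low genes. Per region, genes reaching 1 RPKM in 3 of 6 libraries entered a limma 3.58.1 fit with a trend of variance on mean (under R 4.3.3), 2-sided, with Benjamini-Hochberg adjustment over all genes and a threshold of 0.05. The fits were tested on simulated data. Every adjusted p is from limma. The contrast between regions used all 12 libraries. Depth came from low values, of which 72.3% to 77% lay within 0.1 of a whole read (20% by chance), too few to rebuild counts. Coordinates are mm9 (GENCODE M1 on NCBIM37) and promoters RefSeq on GRCm38.p6. Named with all libraries were members past the threshold and the most abundant member of each role, with at most 8 genes of the further erythroid list, and members given in full outside this rule (Cldn13, Tspo2, Car1) were chosen after their values were seen. Members and lists were chosen with earlier results of these data known. Replicate numbers follow record order. Alternatives were other pseudocounts, filters, scalings, transcripts and fits, and leaving out each library. Python 3.11.15, pandas 2.3.3, numpy 2.4.6 and matplotlib 3.10.9 were used.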

Additional observations from a re-analysis of the deposited data

How the results depend on the processing

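No paired analysis was possible because the labels give the libraries no replicate numbers that groups share. Of 15 members called in the metaphysis, 0 were called when all 12 libraries shared the estimate of spread, where 7 of all genes were. With no filter on low values 1 was called, and leaving out single libraries gave 0 to 21. Other pseudocounts, scalings and filters, the highest transcript or no trend gave 10 to 19. The shares of all genes called in these metaphysis settings are not given here, so the counts cannot be read as particular to the members. In the contrast between regions, leaving out single libraries gave 0 to 2 called members, the 2 without diaphysis WT replicate 1. The metaphysis median ran from -1.02 to -0.58 over left-out libraries, and 0 metaphysis members changed direction under any alternative tried. Directions in the diaphysis, where none was called, did change. Over left-out libraries Gata1 ran from -0.15 to 0.51, Klf1 from -0.045 to 0.42, Epor from -0.020 to 0.51, Slc4a1 from -0.30 to 0.24, Rhd from -0.25 to 0.38, Slc25a37 from -0.25 to 0.32, Hemgn from -0.22 to 0.30 and Bpgm from -0.51 to 0.094, and Rhd was -0.028 with globins removed from the total. The cause of these shifts was not tested. Depth limits no member, since the lowest value of any of them stands above the RPKM minimum, and 3 libraries per group limit the precision.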
